A study of Mus musculus with 2 samples.

Results

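The ends of the mouse autosomes were described in a genome-wide DNA methylation table of the early embryo. Each of the 19 autosomes has a centromeric end, taken as the 2 Mb after the first CpG with a read, and a telomeric end, taken as the 2 Mb before the last CpG with a read. The ends were chosen by position alone. Each was divided into 200 tiles of 10 kb, and a tile was measured when its CpGs held at least 20 read counts. Of the 7600 tiles placed in the 38 ends, 7465 were measured, 3703 in centromeric and 3762 in telomeric ends, out of 237995 measured autosomal tiles. Of the 135 tiles left out, 63 had no read, and 37 of those held no CpG.

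The cells were epiblast of wild-type female (XX) C57Bl6/J embryos at embryonic day 6.5, dissected by hand away from the extraembryonic tissue, whose DNA gave the sex by PCR. Embryos came from natural matings and were never in culture. Methylation was read by whole-genome bisulfite sequencing, in which unmethylated cytosine is read as thymine and methylated cytosine stays cytosine. The labels list 2 samples of this group, and their counts came as 1 table without a column per sample, so no value has a replicate error and no p-value was computed. A level between 0 and 100% in a pool of cells can come from partly methylated DNA in each cell or from a mixture of cells, and these cannot be told apart here.

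Mouse autosomes are telocentric: the centromere lies next to one telomere, and the long arm runs to the other. Centromeric DNA is built of satellite repeats and telomeres of short repeats, and a genome assembly holds little of either, so most of these repeats lie outside the covered sequence. In mammalian cells most CpGs outside CpG islands are methylated, whereas CpG islands, the CpG-dense stretches at many gene starts, are mostly free of methylation. In the mouse embryo methylation is low in the blastocyst and is laid down anew as the epiblast forms after implantation.

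The first CpG listed on any autosome lay at position 3000010 of mm10, on chromosome 13, and the first covered CpGs lay between 3000023 and 3100048, the latter on chromosome 11. The last covered CpGs lay between 61331128 on chromosome 19 and 195371430 on chromosome 1. On all 19 autosomes the last listed CpG was also the last covered one.

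Promoters show the span of methylation within the ends. The sequences below are the 250 bases before the annotated start of 7 genes, from RefSeq on GRCm38.p6, the build whose chromosomes are those of mm10, with every CpG in capitals. They were chosen to show the lowest CpG-rich promoter of each side (Kbtbd3 and Ube2j2), with symbols starting with Gm or LOC or ending in Rik left out. Also shown are 3 CpG-rich promoters among the highest (Npas4, Topaz1 and Csf2ra), a growth factor gene of the early embryo, and a CpG-poor promoter close to a tip. Kbtbd3 (a kelch and BTB domain protein, chr9:4309493-4309742, + strand) and Npas4 (a transcription factor induced by neuronal activity, chr19:4989972-4990221, - strand) are centromeric. Fgf4 (a growth factor of the early embryo, chr7:144861136-144861385, + strand), Ube2j2 (a ubiquitin-conjugating enzyme of the endoplasmic reticulum, chr4:155943563-155943812, + strand) and Topaz1 (a germ cell protein, chr9:122746949-122747198, + strand) are telomeric. So are Csf2ra (a subunit of the receptor for GM-CSF, chr19:61228419-61228668, - strand) and Mrgprd (a receptor of sensory neurons, chr7:145314585-145314834, + strand).
Kbtbd3: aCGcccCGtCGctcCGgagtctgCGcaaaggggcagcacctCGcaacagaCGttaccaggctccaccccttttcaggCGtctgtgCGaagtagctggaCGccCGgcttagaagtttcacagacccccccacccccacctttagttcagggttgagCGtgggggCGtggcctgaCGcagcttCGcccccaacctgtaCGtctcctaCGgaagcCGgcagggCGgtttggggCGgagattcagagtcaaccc
Npas4: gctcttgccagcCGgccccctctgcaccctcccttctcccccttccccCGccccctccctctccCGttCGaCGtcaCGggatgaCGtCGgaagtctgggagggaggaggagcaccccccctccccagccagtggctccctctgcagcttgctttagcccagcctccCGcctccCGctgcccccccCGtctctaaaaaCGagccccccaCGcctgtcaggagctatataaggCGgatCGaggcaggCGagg
Fgf4: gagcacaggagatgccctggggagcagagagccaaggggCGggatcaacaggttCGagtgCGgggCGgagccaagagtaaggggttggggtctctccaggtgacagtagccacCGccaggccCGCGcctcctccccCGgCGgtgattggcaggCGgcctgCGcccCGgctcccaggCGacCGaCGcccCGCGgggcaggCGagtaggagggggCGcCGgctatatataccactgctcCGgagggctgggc
Ube2j2: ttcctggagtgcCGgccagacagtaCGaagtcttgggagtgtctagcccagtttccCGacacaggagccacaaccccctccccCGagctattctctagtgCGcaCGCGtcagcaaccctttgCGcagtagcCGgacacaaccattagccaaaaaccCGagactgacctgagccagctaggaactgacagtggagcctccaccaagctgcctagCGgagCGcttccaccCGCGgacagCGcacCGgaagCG
Topaz1: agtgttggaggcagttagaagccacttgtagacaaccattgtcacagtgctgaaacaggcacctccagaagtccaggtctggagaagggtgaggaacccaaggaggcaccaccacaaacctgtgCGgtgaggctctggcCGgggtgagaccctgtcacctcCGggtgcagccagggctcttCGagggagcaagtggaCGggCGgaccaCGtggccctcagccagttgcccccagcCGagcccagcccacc
Csf2ra: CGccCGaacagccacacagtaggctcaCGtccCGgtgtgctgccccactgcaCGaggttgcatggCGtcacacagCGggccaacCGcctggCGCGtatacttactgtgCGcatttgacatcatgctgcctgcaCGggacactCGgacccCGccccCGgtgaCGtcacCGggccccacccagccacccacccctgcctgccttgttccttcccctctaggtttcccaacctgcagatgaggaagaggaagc
Mrgprd: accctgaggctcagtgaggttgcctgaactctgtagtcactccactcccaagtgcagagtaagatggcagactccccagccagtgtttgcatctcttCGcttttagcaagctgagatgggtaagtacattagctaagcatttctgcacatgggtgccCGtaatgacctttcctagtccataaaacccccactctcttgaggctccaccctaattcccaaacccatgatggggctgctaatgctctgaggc

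In these 250 bases Kbtbd3 had 20 CpGs and a methylation level of 1.66% (3 of 181 read counts; 95% interval 0.343% to 4.77%). The level is methylated read counts over all read counts, and intervals are exact Clopper-Pearson intervals that cover counting error only. A read can span several CpGs and no molecular identifiers were counted, so the intervals can be too narrow. Fgf4 had 21 CpGs at 1.71% (5 of 292), and Ube2j2 had 17 CpGs at 1.29% (5 of 389). Npas4 had 16 CpGs at 22.2% (16 of 72; 13.3% to 33.6%) and Csf2ra 17 CpGs at 30.4% (85 of 280; 25% to 36.1%). Topaz1 had 8 CpGs at 58.8% (57 of 97; 48.3% to 68.7%). Mrgprd, with 2 CpGs, was at 81.8% (27 of 33; 64.5% to 93.0%). Read beside the sequences, the 3 lowest levels belong to stretches with 17 to 21 CpGs, but Csf2ra holds as many CpGs as Ube2j2 at a higher level.

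Across the autosomes 89.9% of 20383623 CpGs had a read, at 6.54 read counts per CpG, and the level was 66.3%. The X had 4.32 read counts per CpG and the Y 0.0445. Promoters of genes known from the epiblast were at 3.30% (Fgf5), 2.88% (Utf1), 5.69% (Dnmt3b), 13.3% (Otx2) and 18% (Pou5f1). Elf5, a trophoblast gene whose promoter is known to be methylated in embryonic lineages, was at 83.8% (75.8% to 89.9%), and the other trophoblast genes Cdx2 and Eomes were at 7.11% and 9.98%. The visceral endoderm genes Afp and Apoa1 were at 75% and 57%. Promoter methylation is not expression, so these values describe the label and do not measure purity.

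The first comparison set each end against the rest of its own autosome. Telomeric ends were less methylated than the rest on 16 of 19 autosomes, and centromeric ends on 8 of 19. The telomeric level averaged 62.0% ± 6.0 (SD between 19 autosomes, which are not replicates; range 47.1% to 72.9%). The centromeric level averaged 65.2% ± 6.51 (45.9% to 72.9%) and the rest 66.6% ± 1.36 (63.4% to 68.1%). Telomeric minus rest averaged -4.58 ± 5.83 percentage points and centromeric minus rest -1.38 ± 6.38 points, each mean smaller than its SD between autosomes. The median difference was -5.02 points for telomeric ends and 0.791 points for centromeric ends, so the centromeric mean was negative while most centromeric ends lay above the rest. With ends of 4 Mb in place of 2 Mb the telomeric difference was -1.93 points.

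**Figure D1:**
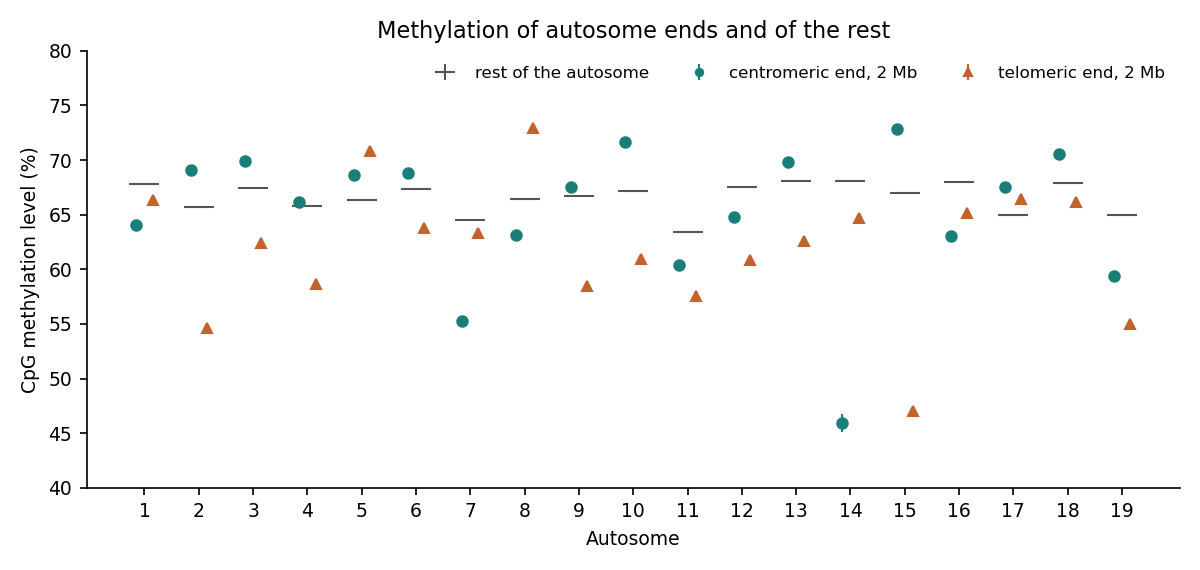
CpG methylation level (percent, y axis from 40 to 80) of the centromeric end, the telomeric end and the rest of each of the 19 autosomes, with exact 95% intervals that are mostly smaller than the symbols. Telomeric ends lie between 47.1% and 72.9%, with 16 of 19 below the dash of their own autosome, and the rest lies between 63.4% and 68.1%.

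The telomeric end of chromosome 15 was the lowest, at 47.1% (46.8% to 47.3%), against 67.0% in the rest of that autosome, a difference of -19.9 points. By difference from the rest, chromosome 2 followed with 54.6% at its telomeric end and a difference of -11.1 points, then chromosome 19 with 55.0% and -9.94 points, chromosome 9 with 58.4% and -8.31 points, and chromosome 4 with 58.7% and -7.10 points. These telomeric ends were low on autosomes whose rest lay between 64.9% and 67.0%. The telomeric ends of chromosomes 12, 10, 11, 13 and 3 differed from the rest by -6.67, -6.20, -5.82, -5.41 and -5.02 points. Those of chromosomes 6, 14, 16, 18, 1 and 7 differed by -3.56, -3.34, -2.80, -1.76, -1.44 and -1.16 points. The telomeric ends that lay above the rest were those of chromosome 8, by 6.49 points at 72.9% (72.6% to 73.2%), chromosome 5, by 4.47 points, and chromosome 17, by 1.5 points.

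The centromeric end of chromosome 14 stood apart at 45.9% (45.1% to 46.8%), -22.1 points from the rest. It was also the most thinly covered end, with 1.47 read counts per CpG, 33.4% of CpGs with a read and 136 of 200 tiles measured. Its 21 tiles under 50% held 46.2% of its read counts at 18.6%, and its other tiles were at 69.4%. The median of its tile levels was 66.7%, against 73.6% in the rest. The low tiles had 2.70 read counts per CpG and the others 1.06. Whether this uneven depth sets the level of the end was not tested. Without chromosome 14, centromeric minus rest averaged -0.230 points. The other centromeric ends below the rest were those of chromosomes 7 (-9.27 points), 19 (-5.50), 16 (-4.94), 1 (-3.72), 8 (-3.23), 11 (-3.0) and 12 (-2.79). Those furthest above it were chromosome 15, at 72.9% and by 5.92 points, and chromosome 10, at 71.7% and by 4.50 points. Chromosome 15 thus had the most methylated centromeric end and the least methylated telomeric end of the 19 autosomes. Telomeric minus centromeric averaged -3.20 ± 9.61 points and was negative on 13 autosomes.

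Interior DNA varies over 2 Mb as well, so each end was ranked among the 2 Mb blocks between the ends of its own autosome. There were 1160 such blocks, and their levels had an SD of 4.28 points within an autosome on average. Of the telomeric ends, 15 of 19 lay among the lowest 25% of their autosome's blocks, with a median rank at the 7.41st percentile, and 12 lay more than 1 SD below the mean block. The telomeric ends of chromosomes 12 and 15 were below all their interior blocks. Of the centromeric ends, 8 lay among the lowest 25%, the median rank was the 43.2nd percentile, and chromosome 14 was the one end below all its blocks.

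Ends differed from the rest in CpG density and depth. Telomeric ends held 8.02 ± 3.01 CpGs per kb, from 4.65 on chromosome 17 to 15.2 on chromosome 4. The rest held 8.59 ± 0.620 CpGs per kb, and 11 telomeric ends lay below the range of the rest while 5 lay above it. Centromeric ends held 8.38 ± 1.90 CpGs per kb, from 5.58 on chromosome 3 to 12.1 on chromosome 19. Depth was 7.31 ± 2.24 read counts per CpG at telomeric ends, 6.21 ± 1.89 at centromeric ends and 6.55 ± 0.465 in the rest. Telomeric ends with more CpGs per kb than their rest also had more read counts per CpG (Spearman's rho 0.858 between the 2 differences over 19 autosomes, a description of ends that share the same libraries).

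**Figure D2:**
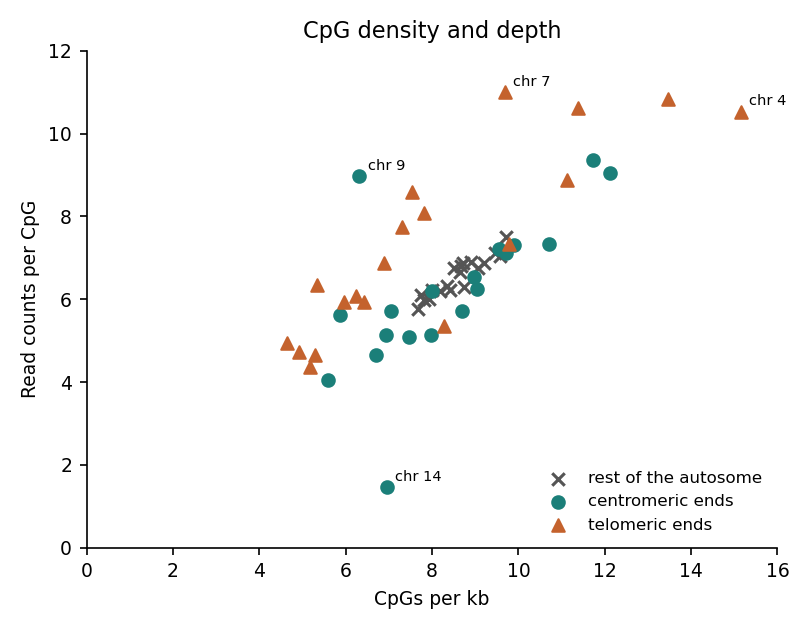
CpGs per kb (x axis) against read counts per CpG (y axis) for each end and for the rest of each autosome. Ends spread from 4.65 to 15.2 CpGs per kb and from 1.47 to 11 read counts per CpG, whereas the rest stays between 7.68 and 9.71 CpGs per kb and between 5.75 and 7.51 read counts per CpG.

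The density of CpGs is not the same thing as the share of CpGs in CpG-dense regions, which here are merged windows of 500 bp with at least 20 CpGs. That share was 15.9% ± 6.70 at telomeric ends, 13.8% ± 4.72 at centromeric ends and 11.5% ± 1.38 in the rest, and it was higher than in the rest at 15 telomeric and 12 centromeric ends. It reached 29.5% at the telomeric end of chromosome 15, 27.5% on chromosome 11 and 26.2% on chromosome 2, and was 6.75% at the telomeric end of chromosome 8, whose level was the highest. Over 19 autosomes the difference in this share and the difference in level had a Spearman's rho of -0.849 at telomeric ends and -0.805 at centromeric ends. CpG-dense regions averaged 20.2% in the rest, so a larger share of them lowers a level by itself, and the values are a description.

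**Figure D3:**
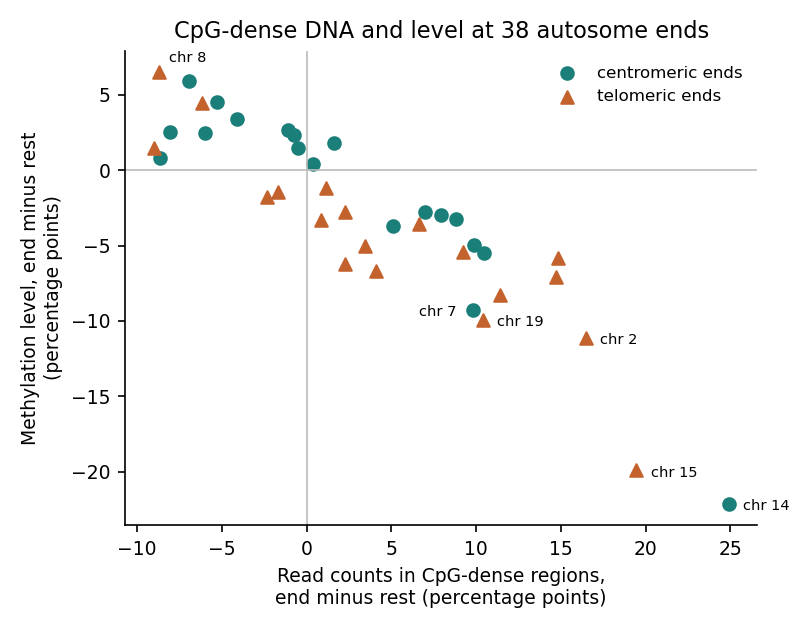
Difference between end and rest in the share of read counts that fall in CpG-dense regions (x axis, percentage points) against the difference in methylation level (y axis, percentage points) for 38 ends. The telomeric end of chromosome 15 and the centromeric end of chromosome 14 lie lowest, at -19.9 and -22.1 points, and the telomeric end of chromosome 8 lies highest, at 6.49 points.

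The level of each end was then set against its own rest with the share of read counts in CpG-dense regions held equal. This share depends on depth as well as on sequence: at the centromeric end of chromosome 9 it was 6.91% against 15.5% in the rest, although 13.1% of its CpGs lay in such regions against 11.4%. At the centromeric end of chromosome 14 it was 38.1% against 13.3% in the rest, with 14.8% of CpGs in such regions against 9.96%. When the rest was reweighted to the share of read counts in CpG-dense regions of each end, telomeric minus rest was -1.96 ± 2.87 points and negative on 14 autosomes, and the shift from reweighting itself was -2.62 points. At centromeric ends the same step left -0.0714 ± 2.80 points, negative on 6 autosomes, with a shift of -1.31 points. The centromeric end of chromosome 14 then differed from its rest by -8.41 points, in place of -22.1 points. After this step chromosome 15 still had the telomeric end furthest below its rest, at -9.76 points, followed by chromosome 10 at -5.01 points. The telomeric ends of chromosomes 4, 11 and 6, below the rest before it, now lay above, by 0.789, 2.64 and 0.114 points. That of chromosome 17 changed from above the rest to -3.45 points, and those of chromosomes 8 and 5 stayed above. Matching on CpG density of whole tiles, in 20 classes, gave -4.87 ± 4.41 points for telomeric ends (negative on 16) and -2.18 ± 6.73 for centromeric ends (negative on 14), or -0.950 for the latter without chromosome 14. By the median of tile levels the matched values were -0.0662 points for telomeric ends, lower on 9 of 19, and 0.716 points for centromeric ends, and with ends of 4 Mb the telomeric value was -1.24 points. Tiles of like density can hold different shares of CpG-dense DNA, so this second step does not equalize that share.

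CpG-dense regions themselves gave no single direction at telomeric ends. Their level averaged 21.6% ± 8.30 at telomeric ends and 20.2% ± 1.65 in the rest, a difference of 1.34 ± 8.05 points that was negative on 10 of 19 autosomes. Over all read counts together the sign was the opposite, at 17.5% (17.4% to 17.6%) against 20.2%. At centromeric ends the mean over autosomes was 24.4% ± 13.2, with a difference of 4.13 ± 13.2 points. Over all read counts together it was 20.6% against 20.2%. Chromosome 3 gave the highest centromeric value, 66.8% on 3456 read counts, and chromosome 17 the lowest, 11%. Among telomeric ends the range ran from 11.5% on chromosome 19 and 12.7% on chromosome 15 to 38.3% on chromosome 17. Gene bodies here are those of protein-coding genes, and CpGs outside them are called intergenic even where another type of gene is annotated. Intergenic CpGs outside CpG-dense regions were lower at telomeric ends on 15 of 19 autosomes, at 70.6% ± 2.81 against 72.7% ± 0.575, a mean difference of -2.13 ± 2.97 points. Chromosome 15 again lay lowest, at 61.2% against 72.8%. At centromeric ends the intergenic difference was 0.313 ± 2.45 points. Gene bodies outside CpG-dense regions were at 74.7% ± 5.20 in telomeric ends and 77.6% ± 0.582 in the rest, lower on 12 autosomes, and at 76.2% ± 4.89 in centromeric ends, lower on 9. Over all read counts together the telomeric value was 77.0% against 77.6% in the rest. The mean over autosomes weights each end equally, whatever its gene body read counts, which were 2125 on chromosome 17 and 153262 on chromosome 4.

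Within the ends, the tip itself was not the least methylated stretch. In the last 50 kb before the telomeric tip the level averaged 68.6% ± 7.06, and it was 62.6% ± 14 from 50 to 100 kb and 63.4% ± 9.46 from 100 to 250 kb. The mean from 50 to 100 kb is over the 18 autosomes with measured tiles there, which ran from 25.8% on chromosome 9 to 80.9%. The level was 61.2% ± 8.99 from 250 to 500 kb, 61.1% ± 9.20 from 500 to 1000 kb and 63.5% ± 7.08 from 1000 to 2000 kb. Beyond the end it was 67.1% ± 4.04 from 2000 to 4000 kb and 68.7% ± 3.38 from 4000 to 10000 kb. The spread between autosomes was larger than the steps between neighbouring stretches inside the end. Outside CpG-dense regions the order was different, with 68.6% in the last 50 kb, 69.2%, 71.2%, 72.0%, 72.9% and 73.4% in the following stretches of the end, and 75% and 76.6% further in. These means rose with every step away from the telomeric tip, although each step was smaller than the SD between autosomes within the end.

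On the centromeric side the first 50 kb averaged 70.2% ± 10.5 over the 17 autosomes with measured tiles there, and 50 to 100 kb averaged 71.1% ± 9.11. The level then was 67.4%, 66.5%, 65.4% and 65.4% in the remaining stretches of the end, and 67.4% and 68.3% further in. Outside CpG-dense regions it was 71.1% ± 8.26 in the first 50 kb and stayed between 73.5% and 75.5% from there to 10000 kb. Depth in the first 50 kb was 12.7 read counts per CpG against 6.42 in the next stretch. Of the 89724 read counts in the first 50 kb, 58470 lay in 4 tiles of chromosome 9, described with the deep tiles.

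**Figure D4:**
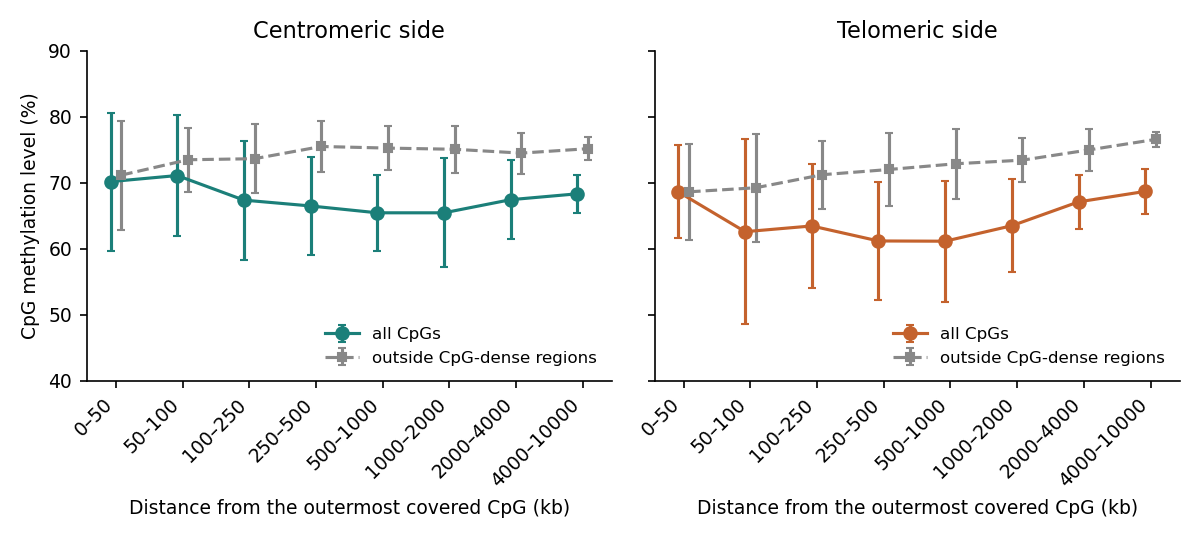
Mean methylation level over the autosomes (y axis, percent; bars are the SD between autosomes) by distance from the outermost covered CpG (x axis, kb), for all CpGs and for CpGs outside CpG-dense regions. On the telomeric side the level outside CpG-dense regions goes from 68.6% in the last 50 kb to 76.6% beyond 4000 kb, while all CpGs together dip to 61.1%.

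Tiles under 50% were used to locate the low stretches. They made up 10.2% of telomeric tiles (385 of 3762) and 8.02% of centromeric tiles (297 of 3703), beside 6.09% of all autosomal tiles. Tiles of 85% or more made up 8.16% of telomeric and 9.18% of centromeric tiles, beside 7.16% of all tiles. Of the low tiles, 92.5% at telomeric and 94.9% at centromeric ends held CpG-dense DNA, and 95.1% did so in the rest. Tiles with CpG-dense DNA were 20.9% of telomeric, 19.9% of centromeric and 16.2% of other tiles, and their median level was 56.2%, 65.5% and 67.1% in that order. Tiles without it had medians of 73.7%, 75.3% and 74.1%. The gap between telomeric ends and the rest was thus wider among tiles with CpG-dense DNA. The median over all tiles of an end averaged 72.6% at telomeric ends, 74.5% at centromeric ends and 73.7% in the rest, and on this measure telomeric ends were lower than the rest on 11 of 19 autosomes and centromeric ends higher by 0.769 points on average.

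**Figure D5:**
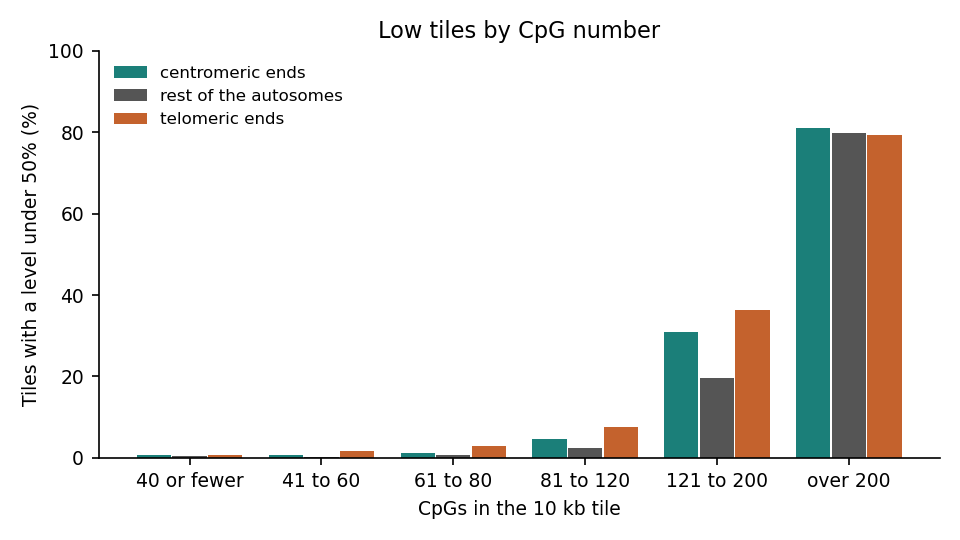
Share of 10 kb tiles with a level under 50% (y axis, percent, from 0 to 100) by the number of CpGs in the tile (x axis) at centromeric ends, in the rest and at telomeric ends. With over 120 and up to 200 CpGs the share is 31.0%, 19.6% and 36.4%, and with over 200 CpGs it is 81.1%, 79.7% and 79.3%.

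Set by CpG number, the shares parted most in tiles with over 120 and up to 200 CpGs, where 36.4% of telomeric, 31.0% of centromeric and 19.6% of other tiles were under 50%. In tiles with over 80 and up to 120 CpGs the shares were 7.49%, 4.51% and 2.39%. In tiles with over 200 CpGs they were 79.3%, 81.1% and 79.7%, within 2 points of each other.

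The longest low stretch of the ends was the Hoxc cluster on chromosome 15, a row of homeobox genes that pattern the body axis. Its 14 tiles (chr15:102903546-103043545, 900 kb from the tip) covered 140 kb from Hoxc13 to Hoxc4 and had a level of 13.4% (13% to 13.8%; 3836 of 28729 read counts). The tile with Hoxc9 was at 6.41%. Of the low stretches of at least 3 tiles, chromosome 15 held 2 more, of 40 kb each, at 32.1% beside Aaas (a nuclear pore protein) and Sp7 (a bone transcription factor) and at 34.1% beside Gpr84 and Zfp385a. The 3 stretches together held 22.0% of the read counts of that end. A low stretch over Sp8, a transcription factor of limb outgrowth, lay on chromosome 12 (chr12:118828622-118858621) at 7.90% (7.30% to 8.53%). It held 10.6% of the read counts of the end.

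Telomeric ends held 14 low stretches of at least 3 tiles and centromeric ends 5. Such stretches were not counted in the rest, so these numbers do not single out the ends. Of the other telomeric ones, the stretch with Cdkn1c on chromosome 7, an imprinted cell cycle inhibitor, was at 26.3%, that with Notum, Mafg and Sirt7 on chromosome 11 at 29.4%, and that with Prdx3 and Grk5 on chromosome 19 at 24.6%. Those with Dvl1, a Wnt signalling protein, and with Atad3a on chromosome 4 were at 34.0% and 33.4%. On the centromeric side Xkr4 on chromosome 1 gave 11.4%, Leng8 and Ttyh1 on chromosome 7 38.7%, Il11 on chromosome 7 35.1%, Map2k7 on chromosome 8 38.9% and Mcoln1 and Pnpla6 on chromosome 8 35.9%.

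Single tiles spanned almost the whole scale. The lowest at centromeric ends were those with Xkr4 (5.73%), Sox17 (6.45%; a transcription factor of endoderm), Kdm2a (7.69%; a histone demethylase that binds CpG islands), Cdk6 (8.22%) and Crebbp (9.30%; a histone acetyltransferase). The lowest at telomeric ends were those with Gm20783 (2.83%), Sp8 (5.29%), Bahcc1 (6.30%), Hoxc9 (6.41%) and Sinhcaf (6.66%; a subunit of a histone deacetylase complex). The highest centromeric tiles lay in Hspa14 (92.3%), Tcea1 (91.8%), Adcy3 and Cenpo (91.8%), Asxl2 (91.5%) and Morc2a (91.3%). The highest telomeric tiles lay in Tmem267 (93.2%), Pard3 (91.8%), Agrn (91.6%), Zfp131 (91.5%) and Itgb1 (91.4%). Of these 10 highest tiles, those in Tmem267, Agrn and Hspa14 held CpG-dense DNA and the others held none. Reads covered 29 of 85 CpGs in the Tmem267 tile and 89 of 177 in the Hspa14 tile. These are levels of whole tiles and need not be those of the CpG-dense DNA in them.

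Some tiles were far deeper than their autosome. Tiles with over 3 times the median read counts per CpG of their autosome numbered 9 at centromeric and 8 at telomeric ends, 0.243% and 0.213%, beside 0.021% of all autosomal tiles. The first 4 tiles of chromosome 9 (from position 3000031 to 3040030) had 87.1, 53.7, 85.6 and 70.8 read counts per CpG at levels of 67.1%, 65.4%, 66.2% and 65.3%, with no annotated gene. They held 51.6% of the read counts of that centromeric end. Without them the end was at 69.0% in place of 67.5% and at 4.63 in place of 8.97 read counts per CpG. Matched on CpG density, that end lay 14.3 points above its rest, the largest positive value of the 38 ends, with these tiles included. The tile with Sfi1 on chromosome 11, a centrosome gene, had 93.5 read counts per CpG at 61.9%. At telomeric ends the deepest tiles were in Tmem267 on chromosome 13 (27.1 read counts per CpG, 63.0%) and 130 kb from the tip of chromosome 19 (26.8, 26.6%). The Gm20783 tile on chromosome 9, with 21.8 read counts per CpG, was also the lowest tile of the ends, and without it that end was at 60.8% in place of 58.4%. Collapsed repeats or copies in the assembly were not tested.

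First tiles next to the tip were read one by one. On the telomeric side all 19 were measured, from 39.3% on chromosome 12 (66 of 168 read counts), 46.8% on chromosome 16 and 52.5% on chromosome 13 to 79.7% on chromosome 6 and 82.1% on chromosome 3. On the centromeric side 17 of 19 had 20 or more read counts. They ran from 53.0% on chromosome 14 (35 of 66) and 57.3% on chromosome 17 to 84.9% on chromosome 15 and 87.4% on chromosome 7 (139 of 159). The first tiles of chromosomes 16 and 19 held 4 and 3 read counts.

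Genes in the ends were read at their promoters, taken as 500 bp on either side of the start. Promoters of chromosome 18 were not analysed here. The ends of the other 18 autosomes held 924 protein-coding genes, 426 centromeric and 498 telomeric, 2.13% and 2.48% of 20046 genes, and 827 had a measured promoter. CpG-rich promoters, with at least 40 CpGs, had a median of 5.22% at telomeric ends (264 promoters), 5.29% at centromeric ends (222) and 5.41% elsewhere (10319). Of them 5 at each side were at 20% or more, 1.89% and 2.25%, beside 1.58% of all. Intermediate promoters had medians of 14.8% at telomeric ends, 15.1% at centromeric ends and 21% elsewhere, and 37.9% and 42.9% of those at telomeric and centromeric ends were at 20% or more, beside 51.1% of all. CpG-poor promoters, with under 20 CpGs, had medians of 70.5%, 71.4% and 72.5% in the same order, and 94.5% and 93.7% of those at telomeric and centromeric ends were at 20% or more, beside 97.2% of all. The interquartile range of single CpG-rich promoters was 3.55% to 7.31% at telomeric ends, and no test of the medians was run.

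The highest CpG-rich promoters of centromeric ends included the pair Sgce and Peg10 on chromosome 6, imprinted neighbours whose windows overlap, at 37.1% (33.0% to 41.3%) and 35.2% (31.4% to 39.2%). Npas4 was at 29.7%, Gal (the neuropeptide galanin) at 22.4%, Stxbp2 at 19.3% and Leng1 at 18.9%. Mterf1a and Mterf1b, 2 copies of a mitochondrial transcription termination factor gene, were at 36.4% and 18.4% on 22 and 49 read counts. These lay at 5 of 48 and 10 of 52 CpGs, and how reads of the 2 copies were placed was not tested. With symbols starting with Gm or LOC or ending in Rik left out, the lowest were Kbtbd3 (1.35%), Gucy1a2 (1.38%; a guanylate cyclase subunit), Gatad1 (1.46%) and Lypla1 (1.49%). At telomeric ends Topaz1 was highest at 55.8% (50.9% to 60.6%), followed by Tmem267 (35.0%), Csf2ra (29.7%), Ptchd3 (23.3%) and Prlhr (20.1%; a receptor for prolactin-releasing hormone). The Tmem267 promoter held 2309 read counts at 94 CpGs. Its tile had 19.8 read counts per CpG, beside a median of 4.82 over the tiles of that end, and whether copies share its reads was not tested. Fndc11, the imprinted Cdkn1c and Ano1 (a chloride channel) were at 19.5%, 16.4% and 15.0%. With the same symbols left out, the lowest were Ube2j2 (1.19%), Prdm16 (1.59%; a regulator of brown fat), Eif3a (1.74%; translation initiation) and Pdzd8 (1.86%). In the sequences shown, Topaz1 and Csf2ra stand on the high side and Kbtbd3 and Ube2j2 on the low side of this same class.

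The measured gene nearest to the tip lay 280.3 kb away at the median centromeric end and 69.7 kb away at the median telomeric end. Of the 18 nearest telomeric promoters 9 were under 20%, and of the 18 nearest centromeric ones 11 were. The telomeric ones were 4 CpG-rich, 9 intermediate and 5 CpG-poor, and the centromeric ones 9, 3 and 6. Beside these, 1.58% of all CpG-rich, 51.1% of all intermediate and 97.2% of all CpG-poor promoters were at 20% or more. Closest to a telomeric tip were Ppp2r3d on chromosome 9, a phosphatase subunit 18 kb from the tip at 84.2% (79% to 88.6%), Gm21814 on chromosome 6 at 5.46%, BC147527 on chromosome 13 at 63.5%, Gm14496 on chromosome 2 at 56.8%, Gm20939 on chromosome 17 at 20.2% and Mrgprd on chromosome 7 at 72.8%. Next on other autosomes came Vmn2r129 (a pheromone receptor, 57.1%), Gm32856 (7.24%), Gm9631 (26.7%), Tmem196 (13.3%), Rfc3 (9.91%; a clamp loader of DNA replication) and Wls (5.64%; needed to secrete Wnt proteins). Closest to a centromeric tip were 9230019H11Rik on chromosome 10 at 56.2%, Gm2897 on chromosome 14 at 3.90%, Fam171a1 on chromosome 2 at 68.9%, Eif4enif1 on chromosome 11 at 4.54% and Scaf8 on chromosome 17 at 5.52%. Further in, the high ones were Gm52720 (83.6%, with reads at 8 of 28 CpGs), Nlrp12 (73.5%), Olfr161 (64%) and Samd9l (50%, on 32 read counts). Among the low ones were Insr (the insulin receptor, 4.68%), Cdk6 (2.82%), Rab10 (2.49%) and Xkr4 (1.76%). Nearness to a tip thus went with both low and high promoters, on either side.

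Gene families were counted without chromosome 18, at the ends and over the other autosomes, with no test. The shares of all genes there were 2.13% centromeric and 2.48% telomeric. Telomeric ends held 58 of the 1103 olfactory receptor genes on those autosomes (5.26%), all on chromosome 10. The 17 measured ones had a median of 70.5% (41.7% to 81.9%). Of the 19 Fgf genes on those autosomes, which encode growth factors, 5 (26.3%) lay in telomeric ends and none in centromeric ends. Their promoters were CpG-rich, with Fgf4 at 3.99%, Fgf15 at 6.89% and Fgf3 at 7.03% side by side on chromosome 7, Fgf14 at 10.5% on chromosome 14 and Fgf10 at 12.6% on chromosome 13. Of 7 Lilr or Pir genes, immune receptors with close copies, 5 lay in the centromeric end of chromosome 7, where Lilra5 was at 76.4%, Lilra6 at 55.6%, and Pirb, Pira1 and Pira2 were not measured. Zinc finger genes named Zfp numbered 7 at centromeric ends (1.86% of the family, median level 7.55%) and 9 at telomeric ends (2.39%, median level 5.31%), near the shares of all genes. Among the telomeric ones, Zfp750, a skin regulator with a CpG-poor promoter, was at 58.0%. The keratin genes Krt8, Krt18 and Krt78, 2.68% of the family, lay in the telomeric end of chromosome 15, with Krt8 at 16.8%, Krt18 at 9.0% and Krt78 at 67.2%. Krt8 and Krt18 are keratins of simple epithelia, and their promoters lay below the CpG-poor one of Krt78. Of 122 Vmn2r genes 6 were telomeric, 1 of them measured. Of 228 Vmn1r genes 2 were centromeric, and neither was measured. The ends counted here held no Speer or Defb gene.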

How the data were processed

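The deposited values are read counts: per the labels and the table's layout, the authors counted methylated and unmethylated reads at every CpG, strand by strand, with both samples in 1 table, and how the samples were combined is not given in the sources used here. The build mm10, cutadapt 1.3, Bismark 0.12.5 and Bowtie2 2.1.0 are named per the submitters' processing notes, with no role or order. Strands were added without normalization. Duplicate reads and adapters added after conversion can change depth. Calculations used Python 3.11.15, numpy 2.4.6, pandas 2.3.3, scipy 1.17.1 and matplotlib 3.10.9, and were tested on simulated data. The rest is the tiles between both ends. Genes came from RefSeq tables of GRCm38.p6. All 395568 CpGs of the promoter sequences matched listed positions. A promoter was measured with 5 CpGs with a read and 20 read counts, and centered on the annotated start, or otherwise on the gene end with more CpGs. Promoters of chromosome 18 were not analysed here. Genes and tiles were named by rule: the gene nearest to each tip, the 8 highest and 4 lowest CpG-rich promoters of each side, the 5 lowest, 5 highest and 5 deepest tiles of each side, first tiles, and the families, of which 1 is not reported here. Symbols starting with Gm or LOC or ending in Rik were left out of the highest and lowest promoters. Genes of the low stretches and the 7 sequences were picked after their values were seen. The members and lists were chosen with earlier results of these data known. Alternatives were ends of 1 or 4 Mb, tiles of 50 kb, other minimums, summaries and strands, and removal of deep CpGs or of each autosome.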

Additional observations from a re-analysis of the deposited data

Results flagged for a closer look

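The labels give the genotype as XX, and chromosome Y, which no comparison used, carried 22885 read counts at 4988 CpGs, or 0.0445 read counts per CpG against 6.54 on the autosomes. Their source was not tested. No other result of the ends met a criterion for a closer look, since a table without a column per sample holds no groups to compare.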

How the results depend on the processing

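Differences are end minus rest in percentage points, given as telomeric, telomeric matched on CpG density, centromeric, centromeric matched. As reported they were -4.58, -4.87, -1.38 and -2.18. With ends of 1 Mb they were -5.59, -6.39, -0.969 and -2.31, and with 4 Mb -1.93, -1.24, -0.623 and -1.56. By the median of tile levels they were -1.17, -0.0662, 0.769 and 0.716, so both centromeric values changed sign. By the mean of CpG fractions they were -3.77, -2.99, -1.04 and -1.58. With the rest taken 10 Mb further in they were -4.24, -4.49, -1.04 and -1.59. With CpGs outside CpG-dense regions they were -2.21, -0.839, -0.426 and 0.0831, the last of which changed sign. Tiles of 50 kb gave matched values of -6.57 and -3.16, and 10 density classes gave -5.35 and -2.56. A minimum of 100 read counts gave centromeric values of -2.10 and -2.84, minus strand reads -1.53 and -2.65, and plus strand reads a matched value of -2.01. Without CpGs of over 26 read counts, the deepest of the genome, the values were -4.32 and -4.70 at telomeric ends and -2.95 at centromeric ends, matched. Added after the data were seen were 4 settings. Tiles with at least 3 read counts per CpG gave -5.12 for telomeric ends, matched, and -2.83 and -3.69 for centromeric ends. The centromeric SDs between autosomes were then 11.3 and 11.2 points, against 6.38 and 6.73 as reported. At the centromeric end of chromosome 14 the median tile had 1.08 read counts per CpG, so this setting leaves out most of it. Without tiles over 3 times the median depth the telomeric differences were -4.38 and -4.75, and the matched centromeric one -3.01. Matching on read counts in CpG-dense regions gave -1.96 and -0.0714, and 10 density by 3 depth classes gave -5.72 and -3.25. Leaving out 1 autosome at a time gave -5.20 (without chromosome 8) to -3.73 (without 15), and matched -5.25 to -4.32. At centromeric ends it gave -1.79 (without 15) to -0.230 (without 14), and matched -3.09 (without 9) to -0.950 (without 14). The telomeric differences stayed negative under these alternatives. Telomeric ends were lower on 11 to 16 autosomes and centromeric ends on 6 to 10, and matched on 9 to 19 and on 6 to 17. No paired analysis was possible because the table holds 1 pool and no column per sample. Autosomes are not replicates, and their SD carries no error of the embryos. The centromeric end of chromosome 14 and the first tiles of chromosomes 16 and 19 are too thinly covered for more than a description. Repeat annotation was not used here.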

Other observations

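The ends of the X, which belong to no comparison of autosomes, were measured the same way. The centromeric end of the X was at 78.0% (77.2% to 78.8%) over 112 measured tiles, with 1.40 read counts per CpG and 34.3% of CpGs covered. The telomeric end was at 65.5% (65.0% to 65.9%) over 123 tiles with 4.64 read counts per CpG. The rest of the X was at 64.3%.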
